A study of Mus musculus with 8 samples.

Results

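Igf2r, Airn, Slc22a2 and Slc22a3 on chromosome 17, and Grb10, Ddc and Cobl on chromosome 11, are 7 of the 26263 genes counted in these libraries, and they make up the imprinted Igf2r-Airn and Grb10-Ddc domains. They were chosen by symbol as genes of these domains, and the domains were selected on the values of the comparison of NPCs with ESCs, since they hold both large rises and large falls by day 12. The differences between the stages are therefore given as a description, without a test, and tests were kept for the differences between the reciprocal crosses, for the interaction of stage and cross, and for the genes around the 7. RNA-seq had been performed on polyA RNA of mouse embryonic stem cells (ESCs), kept in a medium with LIF, BMP4 and a GSK3-β inhibitor, and of neural precursor cells (NPCs) made from them by in vitro corticogenesis and collected at day 12. Each stage was represented by 2 lines from reciprocal crosses of the C57BL/6 (B6) and JF1 strains, with 2 libraries for each of the 4 groups. In B/J cells (line BJE2) the mother was B6 and the father JF1, in J/B cells (line JBE6) the parents were swapped, and no deletion or transgene is described for either. Since each cross was represented by 1 line, cross and line cannot be told apart. It is not stated whether the 2 libraries of a group came from separate cultures, so that a p-value here measures only the spread between these libraries. The kit was either TruSeq Stranded mRNA or NEBNext Ultra II, the instrument was either a HiSeq4000 or a NovaSeq, and which library had which is not given.

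In an imprinted domain, a methylation mark inherited from 1 parent at an imprinting control region decides which parental copy of the neighbouring genes is used. At the Igf2r domain, the mark is in an intron of Igf2r, where the unmethylated paternal copy is the start of Airn, a long non-coding RNA read antisense through Igf2r. Airn silences Igf2r on the paternal chromosome in most tissues, and in the placenta also Slc22a2 and Slc22a3, whereas neurons and ESCs are known for Igf2r expression that is less strictly maternal. Igf2r itself is a sorting receptor that carries mannose 6-phosphate-tagged enzymes to lysosomes and removes Igf2 from the cell surface. At the other domain, Grb10, an adaptor that damps signalling of the insulin and Igf1 receptors, is read from the maternal copy in most tissues and from the paternal copy, through other start sites, in neurons. Ddc, aromatic L-amino acid decarboxylase, makes dopamine and serotonin and is imprinted in the developing heart, and Cobl, an actin nucleator, lies on the other side of Grb10. The counts used here sum both alleles and all start sites of a gene, and which parental copy the reads came from was not analysed here.

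In the GENCODE vM39 annotation of GRCm39, Igf2r runs on the minus strand of chromosome 17 from 12901293 to 12988614, and Airn runs on the plus strand from 12960198 to 13079299. Airn starts in intron 2 of Igf2r, 28.4 kb from the start of Igf2r, and the spans of both genes share 28417 bp in which no exon of one overlaps an exon of the other. Slc22a2 (chromosome 17, 12803019 to 12847375, plus strand) and Slc22a3 (12637847 to 12726614, minus strand), both organic cation transporters, start 185.6 and 262.0 kb from the start of Igf2r. On chromosome 11, Grb10 (11880498 to 11988683), Ddc (11762602 to 11848150) and Cobl (12186608 to 12415229) are all on the minus strand, and the starts of Ddc and Cobl lie 140.5 and 426.5 kb from that of Grb10. The sources used here do not say whether the authors' counting used the strand. Exons of Slc22a3 share 420 bp, 7.76% of their length, with exons of Plg on the opposite strand and 594 bp (10.97%) with those of Gm65152, also opposite, which has no row in the counts used here. Exons of Ddc share 421 bp, 4.08% of their length, with those of 1700042O10Rik. The counted partners had few counts, 2 in ESCs and 20 in NPCs over all libraries for Plg, and 32 and 12 for 1700042O10Rik.

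**Figure D1:**
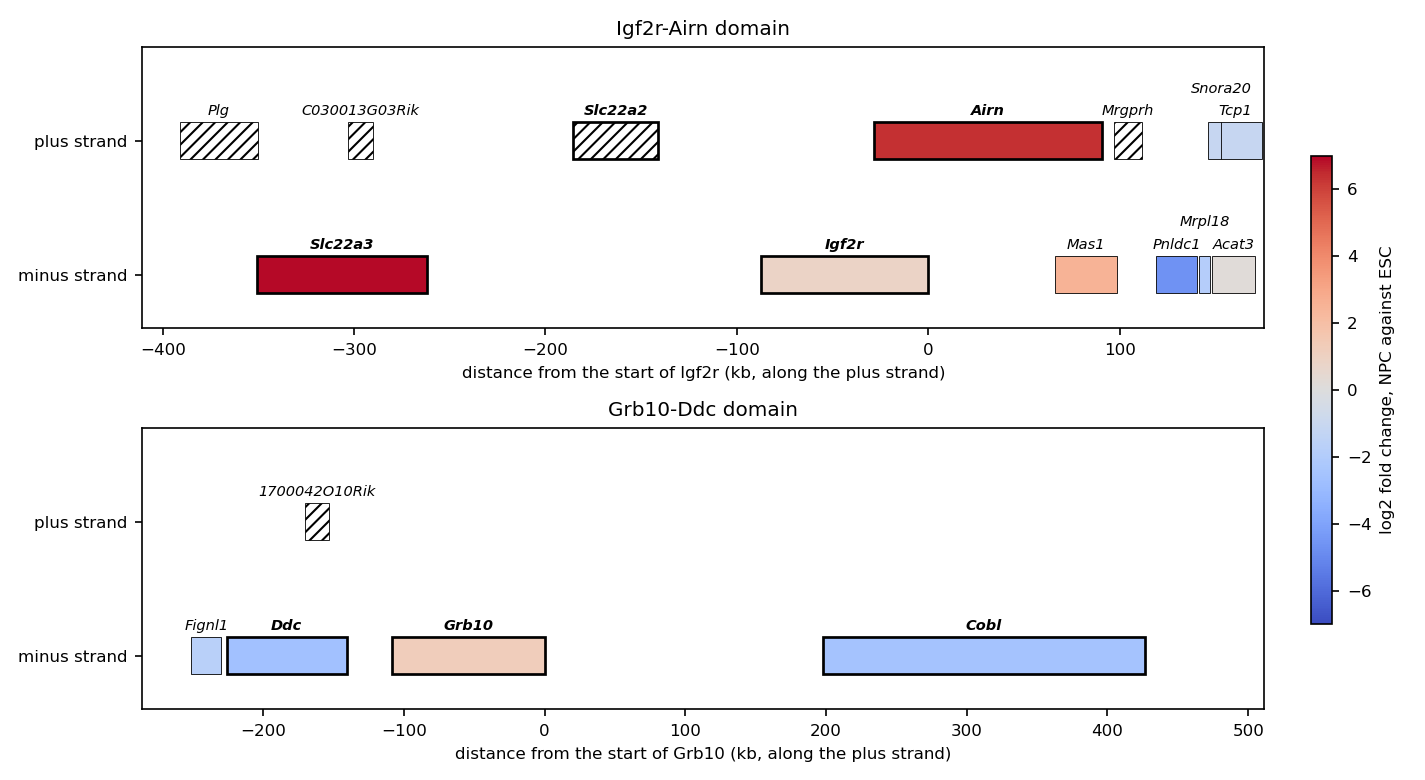
Positions of the domain genes (heavy outlines, bold names) and of genes around them, as annotated, with distance from the start of Igf2r (upper panel) or Grb10 (lower panel) in kb on the x axis and the strand on the y axis. Colour gives the log2 fold change between NPCs and ESCs with TMM factors (red higher in NPCs, blue lower), and hatched white genes had too few counts to be tested. Not every gene of the interval is drawn. In the upper panel Airn and Slc22a3 are the deepest red with Igf2r pale between them, and in the lower panel Grb10 (1.23) lies between Ddc (-2.63) and Cobl (-2.56).

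The starts of these genes differ in how many CpG dinucleotides, the targets of methylation, surround them. The following promoter sequences, from 250 bases before to 50 bases after a start in RefSeq, are shown for the overlapping pair Igf2r and Airn, for Slc22a3, which moved with Airn, for both annotated starts of Grb10 and for the 2 genes that fell. They are taken from RefSeq's promoter table, placed on GRCm39 by exact match and read along the strand of the gene, with each CpG in capitals.
Igf2r, chr17:12988544-12988843, minus strand, 34 CpG: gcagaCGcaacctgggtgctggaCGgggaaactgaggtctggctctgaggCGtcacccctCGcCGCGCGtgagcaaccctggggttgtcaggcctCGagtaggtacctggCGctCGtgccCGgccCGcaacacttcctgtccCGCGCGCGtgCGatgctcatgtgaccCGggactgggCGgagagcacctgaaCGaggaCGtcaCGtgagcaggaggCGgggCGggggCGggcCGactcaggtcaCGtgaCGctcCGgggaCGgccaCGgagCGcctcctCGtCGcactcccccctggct
Airn, chr17:12959948-12960247, plus strand, 3 CpG: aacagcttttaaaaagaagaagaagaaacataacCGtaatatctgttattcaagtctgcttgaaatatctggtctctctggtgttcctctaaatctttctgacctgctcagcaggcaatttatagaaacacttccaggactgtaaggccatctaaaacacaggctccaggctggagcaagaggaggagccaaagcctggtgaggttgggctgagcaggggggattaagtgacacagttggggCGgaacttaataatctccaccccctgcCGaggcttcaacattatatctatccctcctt
Slc22a3, chr17:12726542-12726841, minus strand, 5 CpG: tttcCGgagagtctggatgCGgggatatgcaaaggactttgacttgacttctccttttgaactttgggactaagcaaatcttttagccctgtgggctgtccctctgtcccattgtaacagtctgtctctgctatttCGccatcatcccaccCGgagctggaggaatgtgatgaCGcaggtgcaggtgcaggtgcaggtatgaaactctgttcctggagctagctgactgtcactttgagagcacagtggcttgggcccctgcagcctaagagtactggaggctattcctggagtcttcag
Grb10 upstream start, chr11:11987371-11987670, minus strand, 45 CpG: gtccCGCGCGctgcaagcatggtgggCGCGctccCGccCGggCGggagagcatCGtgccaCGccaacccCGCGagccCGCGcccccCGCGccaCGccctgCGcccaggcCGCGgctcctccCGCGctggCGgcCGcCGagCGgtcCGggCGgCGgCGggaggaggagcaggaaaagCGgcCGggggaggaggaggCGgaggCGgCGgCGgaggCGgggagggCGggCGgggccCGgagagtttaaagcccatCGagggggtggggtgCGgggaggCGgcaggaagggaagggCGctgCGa
Grb10 downstream start, chr11:11977922-11978221, minus strand, 9 CpG: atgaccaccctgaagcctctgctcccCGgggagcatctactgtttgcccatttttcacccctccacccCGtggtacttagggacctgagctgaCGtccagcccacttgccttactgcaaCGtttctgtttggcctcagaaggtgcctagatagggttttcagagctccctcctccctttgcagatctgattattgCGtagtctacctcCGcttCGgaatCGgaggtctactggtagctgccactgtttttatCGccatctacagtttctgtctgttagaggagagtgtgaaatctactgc
Ddc, chr11:11840359-11840658, minus strand, 5 CpG: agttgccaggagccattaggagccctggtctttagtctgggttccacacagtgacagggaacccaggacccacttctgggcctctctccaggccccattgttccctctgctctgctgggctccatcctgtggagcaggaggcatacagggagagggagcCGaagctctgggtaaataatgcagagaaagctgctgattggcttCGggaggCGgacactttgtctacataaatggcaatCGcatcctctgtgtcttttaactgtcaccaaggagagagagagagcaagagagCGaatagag
Cobl, chr11:12414911-12415210, minus strand, 42 CpG: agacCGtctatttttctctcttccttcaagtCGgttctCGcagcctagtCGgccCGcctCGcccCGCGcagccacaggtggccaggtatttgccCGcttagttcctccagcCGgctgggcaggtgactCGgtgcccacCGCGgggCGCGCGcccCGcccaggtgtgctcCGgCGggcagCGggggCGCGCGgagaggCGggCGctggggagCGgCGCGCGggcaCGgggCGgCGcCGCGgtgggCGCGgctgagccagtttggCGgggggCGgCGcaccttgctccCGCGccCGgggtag

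Over the 32851 promoters of the table, the median was 7 CpG, with quartiles of 3 and 20. The upstream start of Grb10 had more CpG than 98.1% of them, that of Cobl more than 97.0% and that of Igf2r more than 92.3%, whereas the Airn window, with 3, had more than 23.3%. The imprinting control region was not mapped here, so this window of 300 bases does not give its CpG content. Genes that rose and genes that fell were found at CpG-rich starts (Grb10 and Cobl) and at CpG-poor starts (Slc22a3 and Ddc) alike. All 7 genes had an entry, with 10 promoters in all. A second entry of Ddc had 2 CpG, a second entry of Cobl had 0, and Slc22a2 had 8. The hexamer TGCCGC, bound by the imprint-protecting factor ZFP57 when methylated, was searched on both strands and occurred in the upstream window of Grb10 and in that of Slc22a2, against 11.6% of all promoters. The letters TATAAA, searched on both strands, occurred in the windows of Airn and of the second Ddc start, against 13.6% of all promoters, and the E-box CACGTG in that of Igf2r, against 7.15%. Such matches describe the letters in these windows and are not evidence of binding.

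The libraries held 22537138 to 32706015 reads on genes, so that 1 count stood for 0.0306 to 0.0444 CPM. Levels below are normalized CPM, the count scaled to the library total times its TMM factor, a factor of 0.820 to 0.885 for the ESC libraries and 1.14 to 1.21 for the NPC libraries. Of the 16399 genes with enough counts to be tested, 6 were domain genes, all but Slc22a2. The median log2 change of all tested genes between the stages was 0.17 with TMM factors, 0.65 with library totals and 0.80 when libraries were scaled by the 3 housekeeping genes Gapdh, Gusb and Tbp, and the changes of the domain genes were read against it. The labelled stages were checked against marker genes. All 8 pluripotency markers were lower in NPCs (edgeR, adjusted p below 0.05), and their summed level fell from between 5665 and 9012 to between 169.5 and 416.1, while 6 of 7 neural precursor markers and 6 of 7 neuronal markers were higher. The neuronal sum was 298.3 to 441.6 in ESCs, mostly from Stmn2, and 244.8 to 1382 in NPCs. Without Stmn2 it was 89.3 to 159 in ESCs and 217.3 to 1252 in NPCs, lowest in NPC B/J replicate 1 and above the ESCs in every NPC library. The NPC libraries also held markers of other cell types. All 10 trophoblast markers were higher, with sums of 15.1 to 89.0 in ESCs and 999.8 to 2868 in NPCs, and Tpbpa and Prl3d1, which define trophoblast subtypes, were at 0 in every ESC library. Of 8 fibroblast and mesenchyme markers, 7 were higher, with sums of 8.20 to 74.5 in ESCs and 754.2 to 1858 in NPCs. ESC J/B replicate 1 stood apart, with a fibroblast and mesenchyme sum of 74.5 against 8.20 to 15.9 in the other ESC libraries, and with 360 counts of the collagen gene Col1a2 against 0 to 4. Of 8 visceral and primitive endoderm markers, 4 were higher, with sums of 3.82 to 8.11 and 9.48 to 51.5. The part of these cell types in the results was not tested.

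Igf2r was read in every library of both stages. In B/J ESCs its level was 99.4 (replicate 1) and 95.6 (replicate 2) normalized CPM, and J/B ESCs had 161.1 and 125.3, in the same order used from here on. In NPCs it stood at 253.3 and 296.2 in B/J and at 163.4 and 174.7 in J/B. All 4 NPC libraries were above all 4 ESC libraries, but only just in the J/B line, where the highest ESC and the lowest NPC library nearly met. The mean rose from 120.3 ± 30.2 to 221.9 ± 63.7 (SD, n = 4 libraries), a fitted log2 change of 0.87 (SE 0.13), or 0.70 relative to the median gene. Within B/J the log2 change was 1.5 (SE 0.19), 1.33 relative to the median gene. Within J/B it was 0.24 (SE 0.19), 0.09 relative to the median gene. This value rested on single libraries, as it was 0.43 (SE 0.22) without ESC J/B replicate 1 and 0.087 (SE 0.22) without ESC J/B replicate 2.

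Airn, the antisense RNA from within Igf2r, went from next to nothing to a low level. Its counts in ESCs were 0 and 2 for B/J cells and 0 and 3 for J/B cells, at or under the 3 counts that a count of 0 allows. In NPCs they were 144 and 178 for B/J and 129 and 200 for J/B, which correspond to 4.10, 5.68, 3.30 and 6.46 normalized CPM. All NPC libraries were far above all ESC libraries, and the crosses overlapped in NPCs. With the counts of a stage pooled, the NPC to ESC ratio was 84.6 (95% interval 36.0 to 261, for counting error only, from 651 and 5 counts). Without ESC J/B replicate 2, which held 3 of the 5 ESC counts, this ratio was 155 (42.9 to 1286), and without any other single library it was between 62.6 and 103.7. Only polyadenylated RNA was sequenced, and since Airn is known to be mostly unspliced, its level was not set beside those of the other genes by length. In NPCs, each library had between 27.0 and 61.8 counts on Igf2r for each count on Airn.

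Slc22a3, the organic cation transporter at the far end of the domain, behaved much like Airn. Its ESC counts were 0 and 3 for B/J and 1 and 2 for J/B. In NPCs it had 338 and 412 counts for B/J and 128 and 309 for J/B, or 9.63, 13.1, 3.27 and 9.98 normalized CPM. J/B replicate 1 was the lowest NPC library for Slc22a3 and also for Airn. The pooled NPC to ESC ratio was 128 (95% interval 58.9 to 351, from 1187 and 6 counts), and between 95.1 and 189 with any 1 library left out. The ratio of Slc22a3 to Airn counts within an NPC library was 2.35 and 2.31 for B/J, and 0.992 and 1.55 for J/B. The placenta is known for strong, imprinted expression of Slc22a3. The summed trophoblast markers were 2868 and 1443 for B/J NPCs and 1523 and 999.8 for J/B NPCs, mostly from the epithelial keratins Krt8 and Krt18, and without these 2 the sums were 637.7 and 279.8 for B/J and 328.3 and 204.9 for J/B. Neither Slc22a3 nor Airn had the library order of these sums. The listed marker Gcm1, a placental transcription factor, had the library order of Slc22a3, at 2.56 and 3.96 for B/J and 0.742 and 3.23 for J/B. Every other listed trophoblast marker was highest in B/J replicate 1, except Prl3d1, which was highest in J/B replicate 1. The fibroblast and mesenchyme markers summed to 1858 and 1363 for B/J and to 754.2 and 1843 for J/B, so that J/B replicate 1 was lowest for these markers as it was for both genes. The part of either cell type in the rise of these genes from ESCs was not tested. In such bulk samples, fewer cells of a type and less RNA per cell cannot be told apart.

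Slc22a2, the kidney-type organic cation transporter near Igf2r, was not detectable above a single count. It had 1 count in ESC B/J replicate 2, 1 in NPC J/B replicate 1 and 0 in the other 6 libraries, which allows at most 0.0629 normalized CPM over the ESC libraries and 0.0408 over the NPC libraries (upper bounds of exact 95% Poisson intervals). No fold was computed and no test was made for it. C030013G03Rik, which lies within the span of Slc22a3 on the opposite strand, had 0 counts in all libraries.

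**Figure D2:**
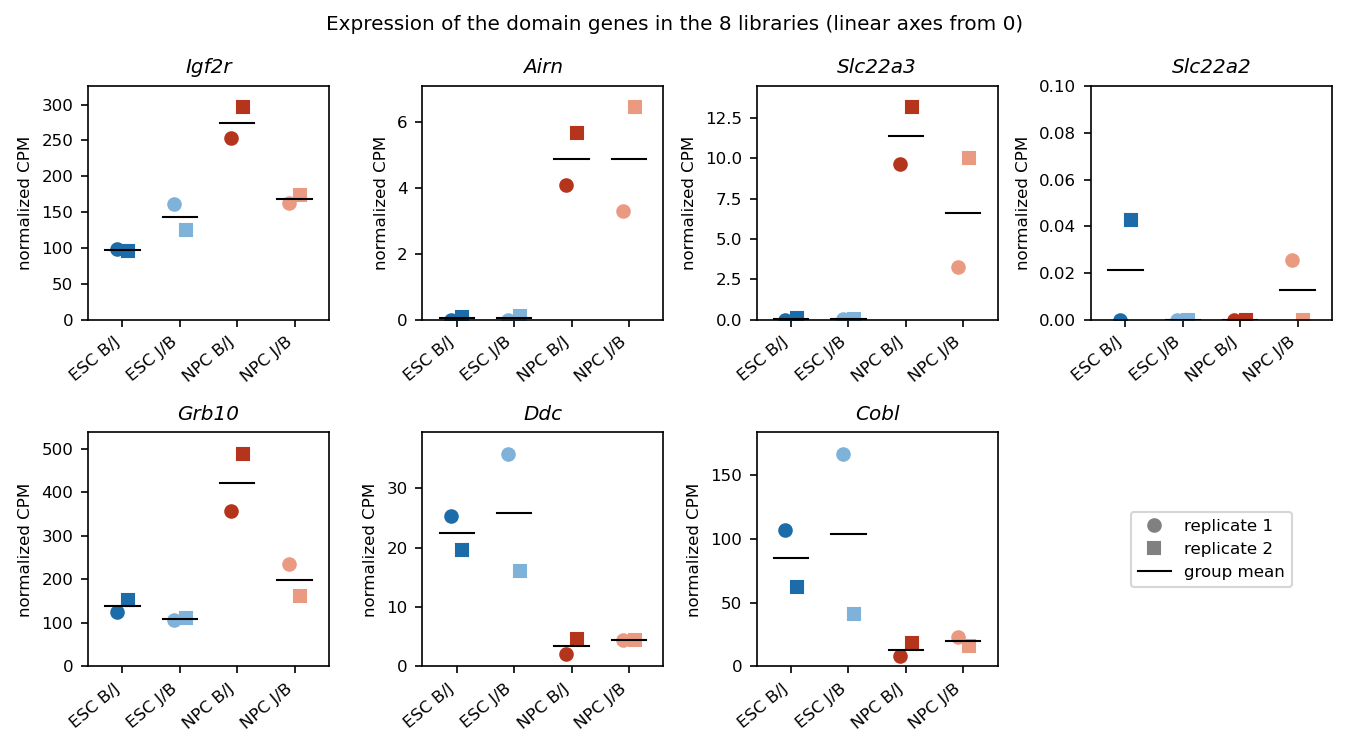
Level of each domain gene, in normalized CPM on linear axes from 0, in the 4 groups on the x axis (ESC and NPC, B/J and J/B). Circles and squares are replicates 1 and 2 and the line is the group mean. Airn and Slc22a3 are near 0 in ESCs, Igf2r and Grb10 are highest in B/J NPCs, Ddc and Cobl are low in all NPCs, and Slc22a2 does not pass 0.043 in any library.

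Grb10 had the highest mean level per transcript length of the domain genes in both stages. In ESCs it stood at 124.8 and 153.2 normalized CPM in B/J and at 106.7 and 112.1 in J/B. In NPCs it stood at 356.0 and 488.4 in B/J and at 235.8 and 161.8 in J/B. The stages did not overlap, and within each stage both B/J libraries were above both J/B libraries. The mean rose from 124.2 ± 20.8 to 310.5 ± 143 (SD, n = 4), a log2 change of 1.23 (SE 0.18), or 1.06 relative to the median gene. Within B/J the change was 1.60 (SE 0.25) and within J/B it was 0.86 (SE 0.25), or 0.54 (SE 0.26) without NPC J/B replicate 1.

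Ddc, which borders Grb10 downstream, went the other way. It stood at 25.3 and 19.7 normalized CPM in B/J ESCs and at 35.8 and 16.0 in J/B ESCs. In NPCs it fell to 2.16 and 4.69 in B/J and to 4.48 and 4.36 in J/B. The stages did not overlap, and B/J replicate 1 stood apart from the other 3 NPC libraries, which were close together. The mean was 24.2 ± 8.63 in ESCs and 3.92 ± 1.18 in NPCs (SD, n = 4), and the log2 change was -2.63 (SE 0.36), with -2.72 within B/J and -2.55 within J/B. The ratio of Grb10 to Ddc counts, which does not depend on the scaling of a library, ranged from 2.98 to 7.79 in the ESC libraries and from 37.1 to 164 in the NPC libraries.

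Cobl, upstream of Grb10, fell alongside Ddc. It stood at 107.1 and 62.1 normalized CPM in B/J ESCs and at 166.5 and 41.3 in J/B ESCs, a range of 4.03 times between libraries of a single stage. In NPCs it stood at 7.95 and 18.0 in B/J and at 23.1 and 16.0 in J/B, below every ESC library. The means were 94.3 ± 55.4 and 16.3 ± 6.31 (SD, n = 4), and the log2 change was -2.56 (SE 0.48). It was -1.90 without ESC J/B replicate 1, the library with the highest level. Within B/J the change was -2.70 and within J/B it was -2.41, or -1.08 (SE 0.52) without that library. The B/J value was -3.41 without NPC B/J replicate 2 and -2.23 without NPC B/J replicate 1. The ratio of Cobl to Ddc counts ranged from 2.59 to 4.65 in ESCs and from 3.66 to 5.17 in NPCs.

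The spread of Ddc and Cobl within ESCs had an order. J/B replicate 1 was the highest, followed by B/J replicate 1, B/J replicate 2 and J/B replicate 2, for both genes. The summed pluripotency markers had the same order, at 9012, 8593, 6523 and 5665 normalized CPM. Of the single markers, Nanog, Tdgf1 and Dppa5a had this order, and Pou5f1, Esrrb, Klf4, Zfp42 and Sox2 did not. Zfp42 was lowest in J/B replicate 1 (114), and Sox2 was highest in B/J replicate 2 (811.5). In NPCs, B/J replicate 1 was the lowest library for Ddc and for Cobl. Its summed pluripotency markers were lowest too, at 169.5 against 279.2 to 416.1, but this rested on Sox2, which is also a neural precursor gene (40.9 against 143.8 to 199.6). Without Sox2 the sum was lowest in NPC J/B replicate 1 (79.6, against 128.5 in B/J replicate 1), whereas the order in ESCs stayed as given. These orders are a description of 4 libraries per stage, and the part of the pluripotent cells in the levels of Ddc and Cobl was not tested. The libraries with number 1 and number 2 gave different sizes of change. With number 1 alone the log2 ratio of the NPC to the ESC mean was -3.20 for Ddc and -3.14 for Cobl, and with number 2 alone it was -1.98 and -1.61. For Grb10 it was 1.35 and 1.29, and for Igf2r 0.68 and 1.09.

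**Figure D3:**
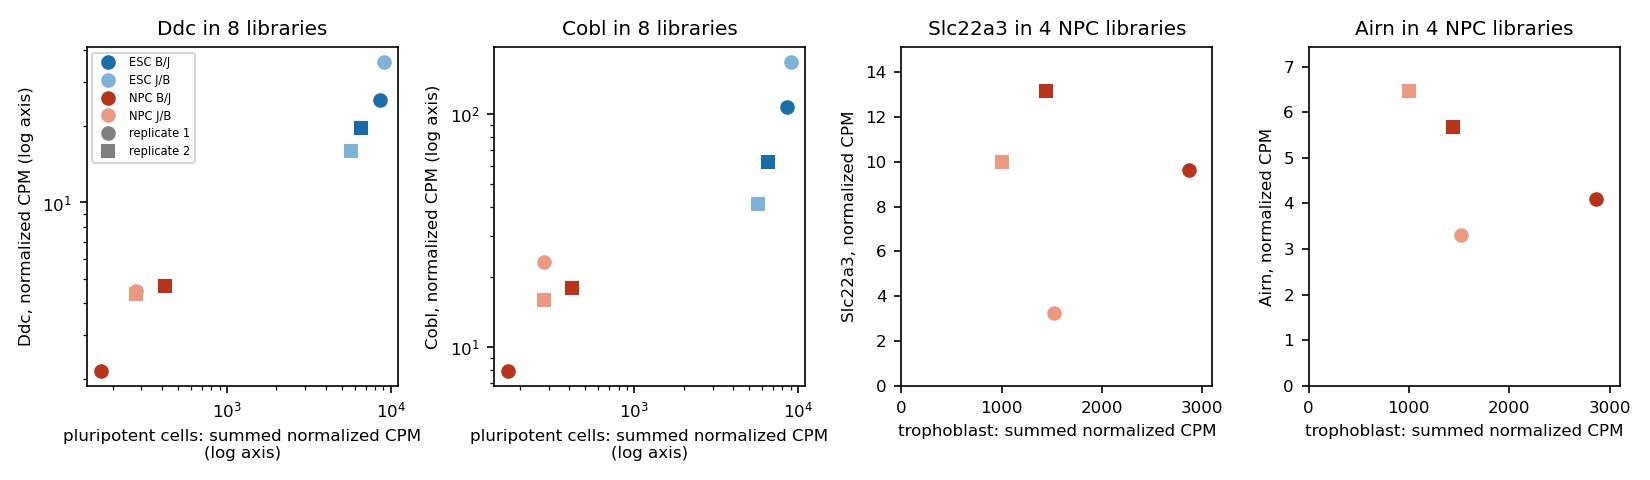
Level of Ddc and Cobl against the summed level of 8 pluripotency markers in all 8 libraries (left panels, both axes logarithmic, normalized CPM), and of Slc22a3 and Airn against the sum of 10 trophoblast markers in the 4 NPC libraries (right panels, linear axes from 0). Colours are groups, circles are replicate 1 and squares replicate 2. Within ESCs Ddc and Cobl have the order of the pluripotency sums, which of the single markers only Nanog, Tdgf1 and Dppa5a share. The trophoblast sums of the NPC libraries run from 999.8 to 2868.

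Counted together, 4 of the 6 tested genes (Igf2r, Airn, Slc22a3 and Grb10) had every NPC library above every ESC library, as had 35.3% of all tested genes, and 2 (Ddc and Cobl) had every NPC library below, as had 31.2%. A fitted rise of at least 2-fold was found for 3 genes (34.3% of all tested genes) and a fall of at least 2-fold for 2 (21.7%). Since the domains had been chosen on this contrast, nothing is read from these counts. Among all tested genes, 95.4% had a lower change than Airn, 96.5% than Slc22a3, 68.8% than Grb10 and 63.7% than Igf2r, and 4.99% had a lower change than Ddc and 5.24% than Cobl. With library totals or housekeeping genes instead of TMM factors, no gene of the 6 changed direction, and changes relative to the median gene moved by less than 0.1, for example from 0.70 to 0.71 for Igf2r and from -2.73 to -2.68 for Cobl.

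Compared per kb of the canonical transcript, the levels had another order in the 2 stages. In ESCs Grb10 led with 24.4 ± 4.09 normalized CPM per kb, followed by Cobl with 15.8 ± 9.31, Igf2r with 13.4 ± 3.37 and Ddc with 6.87 ± 2.45 (SD, n = 4), and Slc22a3 was at 0.0189. Cobl overlapped both Grb10 and Igf2r between libraries, so these neighbours in the order did not differ beyond their spread. In NPCs the order was Grb10 with 61.0 ± 28.1, Igf2r with 24.8 ± 7.12, Cobl with 2.73 ± 1.06, Slc22a3 with 2.55 ± 1.17 and Ddc with 1.11 ± 0.335. There, neither Cobl and Slc22a3 nor Slc22a3 and Ddc could be separated by their libraries, since Slc22a3 in J/B replicate 1 (0.928) was below Ddc in 3 libraries, and the lowest Grb10 library (31.8) was below the highest Igf2r library (33.1).

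The reciprocal crosses ask whether a level depends on which strain was the mother, and this contrast had no part in choosing the genes. In ESCs, Igf2r was higher in J/B (143 ± 25.3 normalized CPM) than in B/J (97.5 ± 2.70, SD, n = 2 libraries each), and Grb10 was lower in J/B (109 ± 3.87 against 139 ± 20.1). The log2 difference was 0.55 (SE 0.19) for Igf2r and -0.35 (SE 0.25) for Grb10, and for neither did it pass edgeR's quasi-likelihood test after Benjamini-Hochberg adjustment (adjusted p = 1.0 for both). Without J/B replicate 1, the ESC library with the mesenchymal markers and the highest for Igf2r, the difference of Igf2r was 0.36 (SE 0.21), and the part of those markers was not tested. None of the 6 tested genes was called, against 0% of all tested genes. DESeq2 and limma-voom called 0 of them as well, and 1, Igf2r, had an unadjusted p below 0.05. Over all genes, edgeR called 0 and limma-voom 0, DESeq2 10, and 346 genes had an unadjusted p below 0.05. The libraries of the crosses did not overlap for 2 of the 6, Igf2r and Grb10, as for 22.6% of all tested genes. Ddc (0.20, SE 0.48) and Cobl (0.30, SE 0.64) overlapped, and without J/B replicate 1 both differences were negative, at -0.50 and -1.04. Airn and Slc22a3 were too low in ESCs to be compared.

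In NPCs, the B/J line had more of both abundant genes. Grb10 averaged 422 ± 93.7 normalized CPM in B/J and 199 ± 52.3 in J/B (SD, n = 2), a log2 difference of -1.09 (SE 0.25) or 2.12-fold. Igf2r averaged 275 ± 30.4 and 169 ± 7.98, a log2 difference of -0.70 (SE 0.19) or 1.63-fold. Neither passed edgeR's test after adjustment over all genes (adjusted p = 0.734 for both). With DESeq2 Grb10 passed (adjusted p = 0.0281) and Igf2r did not (adjusted p = 0.0912), and limma-voom gave an adjusted p of 0.461 for both. In simulated counts with 200 changed genes, 26.1% of DESeq2's calls in this contrast were false, against 5.77% of edgeR's. Over all alternatives the adjusted p was between 0.0281 and 1.0 for Grb10 and between 0.0912 and 1.0 for Igf2r. Of the 6 genes, edgeR called 0, against 0.0061% of all tested genes, which is the single gene Firre, an X-linked non-coding RNA named here after its value was seen. The count with an unadjusted p below 0.05 was 2 of the 6, Grb10 and Igf2r, and 1050 of all genes, and DESeq2 called 70 genes in all and limma-voom 1. Grb10 and Igf2r were also the 2 of the 6 genes whose libraries did not overlap between the crosses, as was the case for 39.2% of all tested genes.

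The other tested genes were not called between the crosses in NPCs by edgeR, DESeq2 or limma-voom. Airn was at 4.89 ± 1.12 in B/J and 4.88 ± 2.23 in J/B (log2 difference -0.00, SE 0.77), and the difference ranged from -0.57 to 0.37 with a library left out. Slc22a3 was at 11.4 ± 2.49 and 6.63 ± 4.74 (log2 difference -0.78, SE 0.70, edgeR adjusted p = 0.857), and the log2 difference was -0.22 without J/B replicate 1 and -1.81 without J/B replicate 2. Ddc (0.37, SE 0.49) and Cobl (0.59, SE 0.65) were on average higher in J/B, with overlapping libraries. The difference of Cobl was 0.103 without B/J replicate 1 and 1.28 without B/J replicate 2. Markers moved with the cross as well. Neural precursor markers summed to 564.9 and 968.7 in the B/J NPCs and to 1250 and 1209 in the J/B NPCs, and endoderm markers to 13.8 and 9.48 and to 40.1 and 51.5, without overlap, whereas the sums for trophoblast, fibroblasts and neurons overlapped. Their part in the differences of Grb10 and Igf2r was not tested.

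Over both stages, Grb10 was lower in J/B by a log2 difference of -0.72 (SE 0.17), in each stage without overlap, and this did not pass edgeR's test after adjustment (adjusted p = 0.994, with DESeq2 0.0792). For Igf2r the differences in ESCs and NPCs had opposite signs and came to -0.07 (SE 0.13). None of the 6 genes was called, against 0.0061% of all tested genes, 1 (Grb10) had an unadjusted p below 0.05, and DESeq2 and limma-voom called 0 of the 6. Over all genes edgeR and limma-voom each called 1, DESeq2 49, and 703 had an unadjusted p below 0.05.

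The interaction of stage and cross asked whether the change from ESCs to NPCs differed between the lines. For Igf2r the log2 change was smaller in J/B than in B/J by 1.26 (log2 difference -1.26, SE 0.26), which put it at rank 8 of 16399 genes by edgeR's p. The adjusted p was 1.0 with edgeR, 1.0 with limma-voom and 0.0371 with DESeq2, and between 0.0371 and 1.0 over all alternatives. In simulated counts, 42.5% of DESeq2's calls in the interaction were false, against 8.33% of edgeR's. The difference kept its sign with any library left out, between -1.41 and -1.06. For Grb10 it was -0.74 (SE 0.35), for Ddc 0.17 (SE 0.68) and for Cobl 0.30 (SE 0.92), and edgeR's adjusted p was 1.0 for each. Of the 6 genes edgeR called 0, against 0% of all tested genes, 1 (Igf2r) had an unadjusted p below 0.05, and DESeq2 called 1 and limma-voom 0. Over all genes DESeq2 called 11, limma-voom 0, and 573 had an unadjusted p below 0.05.

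**Figure D4:**
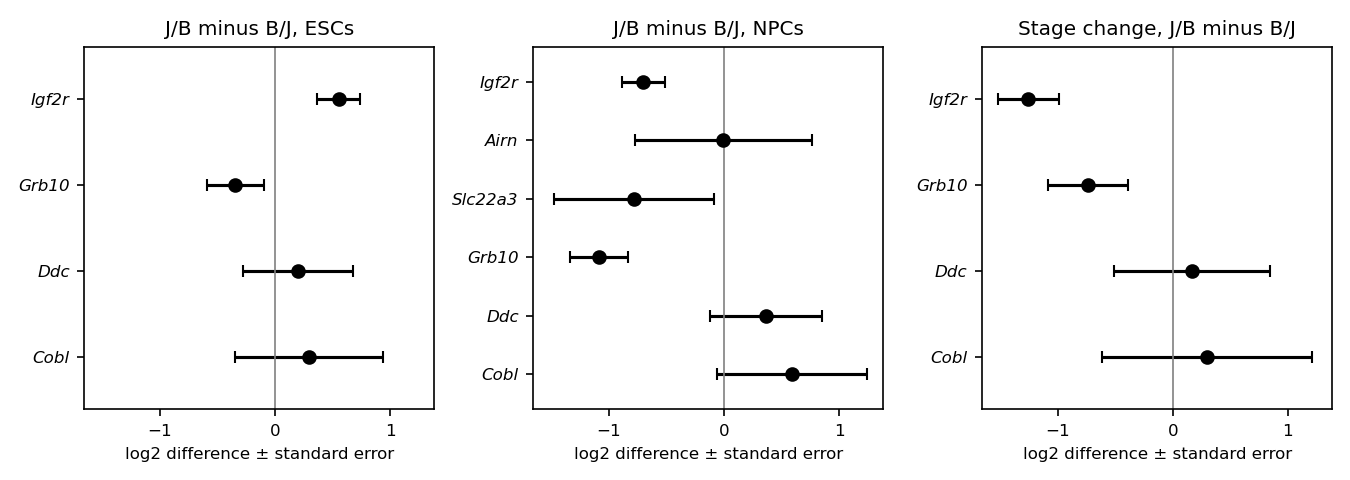
Log2 difference between the J/B and B/J lines (x axis, point with standard error from edgeR) for the domain genes with enough counts, in ESCs, in NPCs and for the change between the stages (interaction). Igf2r is at 0.55 in ESCs and -0.70 in NPCs, Grb10 is below 0 in all panels, and none of the differences passed edgeR's adjusted test.

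The genes that work with the domain genes were compared between the stages, each list without the domain genes, against 37.5% of all tested genes called higher and 31.9% called lower (edgeR, adjusted p below 0.05). In the list of insulin and IGF signalling, to which Igf2r and Grb10 belong, 17 of 28 tested genes were higher, 7 lower and 4 not called, with a median log2 change of 1.42, against 0.17 for all genes. The ligand Igf2, which Igf2r removes, rose from 15.03 ± 6.77 to 3333 ± 1475 normalized CPM (log2 7.70, SE 0.38, adjusted p = 1.13e-05 from edgeR). The ligand Igf1 had 7 counts over all ESC libraries and 19.3 ± 6.71 normalized CPM in NPCs. The receptors that Grb10 binds also rose, Igf1r by a log2 of 2.21 (SE 0.18, edgeR adjusted p = 4.68e-05) and Insr by 1.58 (SE 0.20, edgeR adjusted p = 0.000306). With library totals none of the 7 lower genes of this list was called lower and 19 were higher.

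Lysosomal sorting by mannose 6-phosphate, the other task of Igf2r, showed no common direction. Of 18 tested genes, 6 were higher, 6 lower and 6 not called, with a median log2 change of 0.06, and with library totals 11 were higher and 3 lower. M6pr, the smaller receptor for the same tag, fell from 199 ± 17.1 to 129 ± 35.1 normalized CPM (log2 -0.65, SE 0.14, adjusted p = 0.00336 from edgeR), while with library totals it was not called (-0.17, adjusted p = 0.251). Naglu, a lysosomal enzyme that degrades heparan sulfate, had the largest rise (3.05, SE 0.30), and Nagpa, which uncovers the mannose 6-phosphate tag, the largest fall (-2.09, SE 0.29), and both were called with library totals too.

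Around Ddc, genes of monoamine synthesis and transport were mostly higher in NPCs. Of 20 listed genes 14 were tested, of which 8 were higher, 2 lower and 4 not called, with a median log2 change of 1.51. Th, the enzyme just before Ddc in dopamine synthesis, had 6 counts over all ESC libraries and stood at 9.74 ± 4.42 normalized CPM in NPCs. Slc18a2, the vesicular monoamine transporter, had 3 counts in ESCs and 3.603 ± 1.23 normalized CPM in NPCs, and the noradrenaline transporter Slc6a2 had 5 counts and 25.9 ± 11.2. Qdpr, which regenerates the cofactor of the monoamine hydroxylases, had the largest fall (-1.79, SE 0.16, edgeR adjusted p = 5.72e-05). Maoa, which breaks monoamines down, was not called (-0.33, SE 0.22, edgeR adjusted p = 0.207), and Tph2, the neuronal enzyme of serotonin synthesis, had 24 counts in ESCs and 11 in NPCs and was not tested. Summed markers of monoaminergic neurons, of which 4 of 8 were called higher, were at 1.22 to 2.43 normalized CPM in ESCs and 12.0 to 56.9 in NPCs, where Nr4a2 alone made up 43.4 of the highest sum. Of these markers 6 are also in the list of monoamine genes, so that the sum is not separate information. Slc6a3 and Fev, which define dopaminergic and serotonergic neurons, had at most 3 counts in each NPC library.

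In the list of organic cation transport, 7 of 10 tested genes were higher, 0 were lower and 3 were not called by edgeR, with a median of 2.96. The 7 were among the 8 tested that belong to solute carrier family 22, as Slc22a2 and Slc22a3 do. Slc22a15 had the largest rise, from 14 counts over the ESC libraries to 8.06 ± 1.60 normalized CPM in NPCs (log2 5.88, SE 0.64, edgeR adjusted p = 0.00014). With library totals 8 were higher and 0 lower. Actin nucleation, the activity of Cobl, was divided, with 10 of 25 tested genes higher, 6 lower and 9 not called, a median of -0.01, and 12 higher and 3 lower with library totals. The formin Daam2 had the largest rise (4.74, SE 0.74) and the formin Diaph1 the largest fall (-1.52, SE 0.17), and both passed under library totals. Cobl, with -2.56, was below every gene of this list that was tested. With TMM factors 54.0% of all genes called between the stages were higher, and with library totals 70.1%.

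Genes within 500 kb of the domains moved in both directions. Of 25 neighbours on chromosome 17, 14 were tested, of which 5 were higher, 5 lower and 4 not called, with a median log2 change of 0.25. Agpat4, a lipid acyltransferase, had the largest rise among those with at least 1 CPM (from 15.5 ± 2.09 to 50.5 ± 15.9, log2 1.67, SE 0.19, edgeR adjusted p = 0.000167). Pnldc1, which trims piRNAs and lies beyond the end of Airn, had the largest fall (from 26.4 ± 5.28 to 1.02 ± 0.310, log2 -4.69, SE 0.33, edgeR adjusted p = 2.67e-05). Mas1, a receptor gene whose span overlaps that of Airn on the opposite strand, was called higher but at 0.416 ± 0.120 normalized CPM in NPCs. Farther on, Mrpl18, Tcp1, Wtap and Sod2 were lower (-1.89, -1.13, -1.30 and -2.11), and Acat3 and Acat2, which lie among them, were not called (0.19 and -0.05). On chromosome 11, 3 of 7 neighbours were tested. Ikzf1, a lymphoid transcription factor, and Fignl1, a DNA repair factor that borders Ddc, were lower (-3.62, SE 0.53, and -1.74, SE 0.17). Zpbp was called higher (2.25, SE 0.84, edgeR adjusted p = 0.0428) but at a low level, 0.214 normalized CPM in ESCs and 1.03 ± 0.876 in NPCs. Its lowest NPC library (0.192) was below its highest ESC library (0.217).

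**Figure D5:**
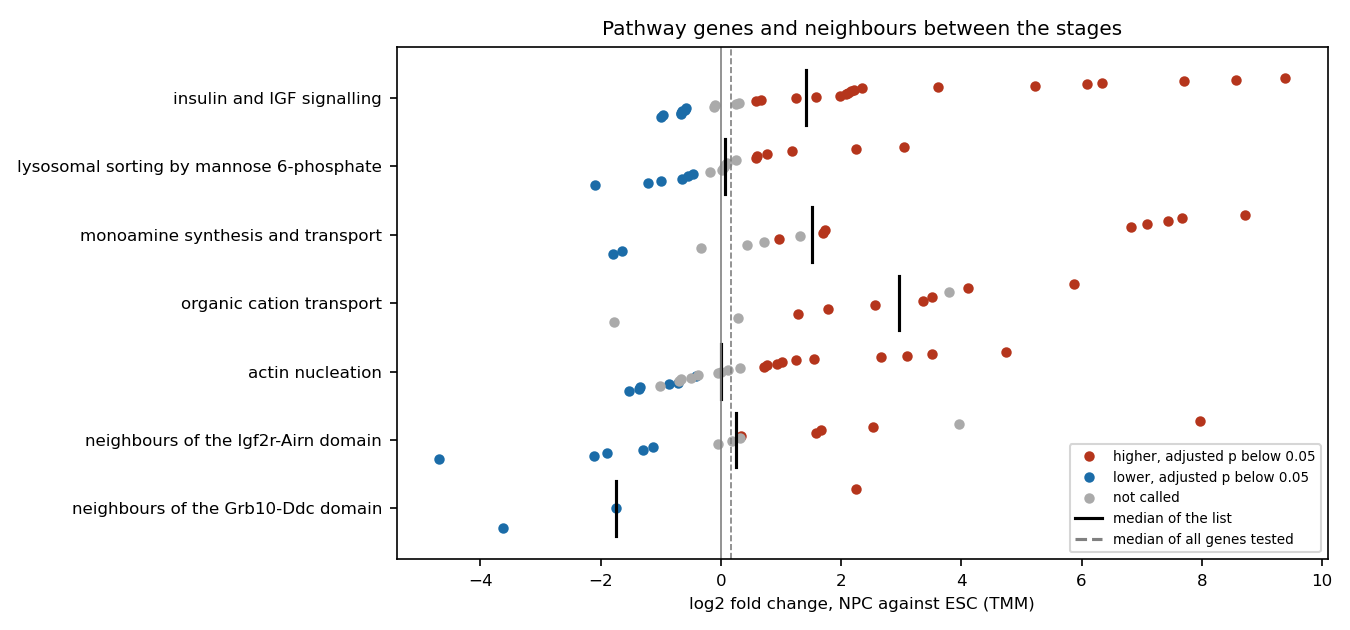
Log2 fold change between NPCs and ESCs (x axis, TMM factors) of the tested genes of each list on the y axis, without the domain genes. Red points were called higher and blue points lower by edgeR at an adjusted p below 0.05, grey points were not called, the black bar is the median of the list and the dashed line the median of all tested genes. Organic cation transport (median 2.96), monoamine genes (1.51) and insulin and IGF signalling (1.42) lie to the right, and lysosomal sorting (0.06) and actin nucleation (-0.01) around 0.

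The genes whose pattern over the 8 libraries was most like that of a domain gene were listed by Pearson's r of log2 CPM (0.5 added) among 14032 genes with a mean of at least 1 CPM. As the libraries share the large difference between stages, high values of r are common, and they are given as a description without a p. Airn was most like Slc16a12 (0.998), with Sema3c also among the closest 3, and Slc22a3 was most like Adamts18 (0.998), Trp63 and Scaper. Airn and Slc22a3 had r = 0.987 with each other, Airn at rank 93 among the genes most like Slc22a3 and Slc22a3 at rank 345 among those most like Airn. Ddc was most like Tm7sf3 (0.996), Tti1 and Brca2, and Cobl was most like Prkdc (0.993), Mtln and Brip1. Ddc and Cobl had r = 0.978 with each other, Ddc at rank 19 among the genes most like Cobl and Cobl at rank 160 among those most like Ddc. Igf2r (best match Ifnlr1, 0.968, then Bcor and Gm16525) and Grb10 (best match Slc16a3, 0.939, then Cep120 and Iffo2) had weaker best matches and r = 0.817 with each other.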

How the data were processed

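The authors deposited raw read counts of 26263 genes in each of 8 libraries, without normalization and summed over both alleles. According to the paper's methods and the submitters' processing notes, reads were aligned with TopHat2 to the mm39 genome with JF1 SNP positions masked and filtered for proper pairs and mapping quality. The notes also name HTSeq, DESeq2 and edgeR, and the sources used here do not say whether counting used the strand. The closing entries were left out of totals (5.76% to 10.9% of reads without a feature, at most 0.554% ambiguous).

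Analyses were run with edgeR 4.0.16 in R 4.3.3 (TMM, filterByExpr with a minimum count of 10, robust quasi-likelihood test on 4 group means, common dispersion 0.113), and with DESeq2 1.42.0 and limma-voom (limma 3.58.1) as alternatives. The Benjamini-Hochberg adjustment took in all 16399 genes tested. Ratios and upper limits of few counts have exact Poisson-based 95% intervals, which cover counting error only. Other alternatives were RLE factors, library totals, housekeeping genes, other filters, a replicate block and each library left out. The fits were tested on simulated counts with 200 changed genes. In the NPC contrast between the lines, 26.1% of DESeq2's calls, 5.77% of edgeR's and 6.54% of limma-voom's were false. In the interaction these shares were 42.5%, 8.33% and 13.3%.

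The 7 genes, the pathway and marker lists and the tests were chosen with earlier results of these data known. Named were the 7 genes, the largest rise and fall of each list with a mean of at least 1 CPM, genes of direct interest in 2 lists (Igf2, Igf1r, Insr and M6pr, and Th, Tph2, Slc18a2 and Maoa), neighbours within 500 kb that lie between the genes or changed most, and the 3 genes most like each. A few results that this rule covers are not reported here. Other names were chosen after their values were seen. They are the neighbours Plg, Mas1, Mrpl18, Tcp1, Acat3, Acat2, Wtap, Sod2, Fignl1 and Zpbp, the overlapping gene Gm65152, and Firre. They also include the marker genes Sox2, Col1a2, Stmn2, Krt8, Krt18, Gcm1, Prl3d1, Nr4a2 and Vim where singled out. The other single pluripotency and neural precursor markers whose library orders are given were chosen in the same way. Promoter sequences come from RefSeq's table for GRCm38.p6 and were placed on GRCm39 by exact match.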

Additional observations from a re-analysis of the deposited data

Results flagged for a closer look

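Ddc in NPC B/J replicate 1 stood apart from the other NPC libraries, at 2.16 normalized CPM against 4.36 to 4.69. Its gap to the nearest library was 0.869 of the range of the 4, above Dixon's 95% critical value for 4 values. Of 10 sets of a gene and a stage tested in this way it was the only one, and chance alone picks out about 1 set in 20. This library also had the highest trophoblast sum of the 4 (2868 against 999.8 to 1523) and the lowest sums of neural precursor markers (564.9 against 968.7 to 1250) and neuronal markers (244.8 against 672.3 to 1382, or 217.3 against 602.2 to 1252 without Stmn2), and their part in the level of Ddc was not tested. Without it, the log2 change of Ddc between the stages was -2.41 in place of -2.63.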

How the results depend on the processing

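The counts of domain genes with a fitted change of at least 2-fold (3 higher, 2 lower) were the same under every alternative run except that 4 were higher with library totals, with housekeeping genes and with the number 2 libraries alone. The added gene was Igf2r, at a log2 change of 1.35, 1.51 and 1.09 there against 0.87. With DESeq2, 1 gene (Grb10) differed between the lines in NPCs and 1 (Igf2r) in the interaction, where edgeR called 0, and the cause was not tested. In simulated counts, 26.1% of DESeq2's calls in NPCs and 42.5% in the interaction were false, against 5.77% and 8.33% of edgeR's. Of the listed genes other than the domain genes, edgeR called 27 lower, against 15 with library totals and 11 with housekeeping genes, which shift the median gene upwards. Some differences between the lines changed sign. Cobl in ESCs was -0.00281 with limma-voom, and Airn in NPCs was 0.0463 with library totals and 0.243 with housekeeping genes. With a library left out, the difference between the lines ranged from -0.50 to 0.65 for Ddc and from -1.04 to 0.96 for Cobl in ESCs, and from -0.57 to 0.37 for Airn and from -0.10 to 1.01 for Ddc in NPCs, and the interaction ranged from -0.30 to 0.86 for Ddc and from -0.37 to 1.63 for Cobl. The sign turned without ESC J/B replicate 1 (Ddc, SE 0.51, and Cobl, SE 0.56) or ESC B/J replicate 2 (Cobl, -0.06) in ESCs, without NPC B/J replicate 2 (0.23) or NPC J/B replicate 1 for Airn, without NPC B/J replicate 1 for Ddc in NPCs, and, in the interaction of both Ddc and Cobl, without ESC B/J replicate 1, ESC J/B replicate 2 or NPC B/J replicate 1, and of Cobl also without NPC J/B replicate 1. A group left with a single library borrowed its spread from the other groups.

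The labels do not say that equal replicate numbers pair libraries. The difference between replicates correlated across genes between the lines within ESCs (r = 0.623) and within NPCs (r = 0.465), and between the stages at 0.05 to 0.09. With a replicate block, edgeR called 0 of the domain genes and 0 of all genes in every contrast between the lines, and the log2 difference in NPCs was -1.07 for Grb10 (adjusted p = 0.381) and -0.70 for Igf2r (adjusted p = 0.381). A replicate block within each stage, added after seeing the data, also called 0 of them (and, of all genes, 4 in NPCs, 1 over both stages and 0 in ESCs and in the interaction), with an adjusted p of 0.118 for Grb10 and 0.109 for Igf2r in NPCs and 0.239 for Igf2r in the interaction. Depth limits what can be said of Slc22a2 in both stages and of Airn and Slc22a3 in ESCs.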
